A study of Homo sapiens with 18 samples.

Results

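Noncoding small nucleolar RNA (snoRNA) host genes were described in HCT116, a human colorectal carcinoma cell line, by RNA sequencing. The members were the 10 genes whose symbol in the count table was SNHG1, SNHG3, SNHG5, SNHG6, SNHG8, SNHG12, SNHG15, SNHG16, GAS5 or ZFAS1, out of 31004 genes, and all 10 passed the filter on low counts in every comparison. The cells carried 1 of 3 stable lentiviral inserts, selected with puromycin: the empty vector (Ctrl), the long noncoding RNA CRLM1 (LINC01767), or an antisense control (Antisense). Each of these backgrounds was then transfected with an HNRNPK overexpression construct (hnRNPK) or its negative control (NC), which gave 6 groups of 3 libraries. HNRNPK encodes an RNA-binding protein that prefers runs of C. As the culture protocol describes 1 stable line per insert, the insert and the line that carries it cannot be told apart.

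Host genes of this class are transcribed, spliced and exported like messenger RNAs, while the snoRNAs in their introns are cut out and guide the chemical modification of ribosomal and other RNAs. Box C/D snoRNAs guide ribose methylation and box H/ACA snoRNAs guide pseudouridylation. The spliced exons hold only short reading frames, so that translation exposes them to nonsense-mediated decay (NMD), and their level is known to rise when translation or NMD is blocked. Many of these genes belong to the 5′ terminal oligopyrimidine (TOP) class, whose transcripts start with C followed by a run of pyrimidines, as those of ribosomal protein genes do.

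The annotated start is shown for SNHG12 and SNHG8, and for ZFAS1 and SNHG3. Among the 8 members with a promoter, SNHG12 and SNHG8 had the longest pyrimidine runs near that start. Each line gives the 30 bases from 10 before to 20 from the annotated RefSeq start in GRCh38.p14, read on the strand of the gene, with capitals for the longest pyrimidine run that starts with C and begins within 5 bases of the annotated start. The windows lie at chr1:28581854-28581883 on the minus strand (SNHG12), chr4:118278752-118278781 on the plus strand (SNHG8), chr20:49278632-49278661 on the plus strand (ZFAS1) and chr1:28505933-28505962 on the plus strand (SNHG3).
SNHG12: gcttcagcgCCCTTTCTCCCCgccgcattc
SNHG8: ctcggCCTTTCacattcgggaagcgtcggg
ZFAS1: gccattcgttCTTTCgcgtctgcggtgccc
SNHG3: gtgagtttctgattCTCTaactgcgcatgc
The run had 12 bases in SNHG12, 6 in SNHG8, 5 in ZFAS1 and 4 in SNHG3. The run began 1 base before the annotated start in SNHG12, at it in ZFAS1 and at base 5 in SNHG3. In SNHG8 the run began 5 bases before the annotated start, so that only its last base lies there. Among the members not shown the run had 5 bases in SNHG5, 3 in SNHG1, 3 in SNHG16 and 1 in GAS5. For GAS5 (173869045) and SNHG3 (28505943) the RefSeq start used here lies outside the Gencode span of the gene given below. A run of at least 6 bases was found for 2 of the 8 members with a promoter in the table (25%), for 18 of 32 coding snoRNA host genes (56.2%) and for 10.3% of all 35116 promoters. Only the strand of the gene was searched. These matches describe the letters at an annotated start and were not measured as transcription starts in these cells.

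The libraries held 19732681 to 27039520 counts, of which the 10 members took 0.124 to 0.202%. All 6 epithelial markers (EPCAM, CDH1, KRT8, KRT18, KRT19 and CLDN7) were above 5 counts-per-million (CPM, scaled to library size) in every library and summed to 3807 to 9791 CPM. Of 7 blood, endothelial, fibroblast and hepatocyte markers in the table, 6 stayed below 1 CPM in every library and COL1A1 was the exception, with the list summing to 11.7 to 33.1 CPM. LINC01767 had 0 counts in each Ctrl library, which allows up to 0.120 to 0.165 CPM by library, against 598 ± 10.5 CPM in CRLM1_NC (SD, n = 3). In the antisense cells it was at 49.8 ± 0.307 CPM (NC) and 42.2 ± 3.05 CPM (hnRNPK), and without a stated strand these reads cannot be told apart from antisense reads. HNRNPK averaged 430 to 471 CPM in the NC groups and 552 to 652 CPM in the hnRNPK groups. With all libraries its difference from NC passed the test in antisense cells (0.35, adjusted p = 0.000839) but not in Ctrl (0.29, adjusted p = 0.362) or CRLM1 cells (0.56, adjusted p = 0.533), where the third hnRNPK library had 491 and 571 CPM. Without that library HNRNPK passed in Ctrl (0.44, adjusted p = 9.91e-07) and CRLM1 cells (0.65, adjusted p = 1.97e-12). In Ctrl and in CRLM1 cells the third hnRNPK library stood apart from its own group. Across 15668 genes the correlation of this library with the rest of its group was 0.960 to 0.965 (Ctrl) and 0.956 to 0.960 (CRLM1), below that with the NC libraries of the same background, 0.984 to 0.986 and 0.980. The study left these 2 libraries out, and each hnRNPK result is given here with and without them.

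Per transcript length, SNHG6, which hosts SNORD87, was the most abundant member in Ctrl_NC, at 203, 202 and 195 FPKM (fragments per transcript length and library size) in its 3 libraries. ZFAS1 followed at 138 ± 7.95 FPKM (SD, n = 3) and GAS5 at 86.6 ± 1.51 FPKM. SNHG8 (58.3 ± 2.03 FPKM) and SNHG16 (57.3 ± 2.01 FPKM) overlapped between libraries and their order is not resolved. The order then ran through SNHG5 (44.1 ± 1.21 FPKM), SNHG1 (41.1 ± 0.937 FPKM), SNHG3 (16.8 ± 0.751 FPKM) and SNHG15 (8.04 ± 0.259 FPKM) to SNHG12, the lowest at 5.75 ± 0.528 FPKM. All values below are CPM scaled over the 18 libraries, which compare 1 gene between groups and not genes with each other.

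**Figure D1:**
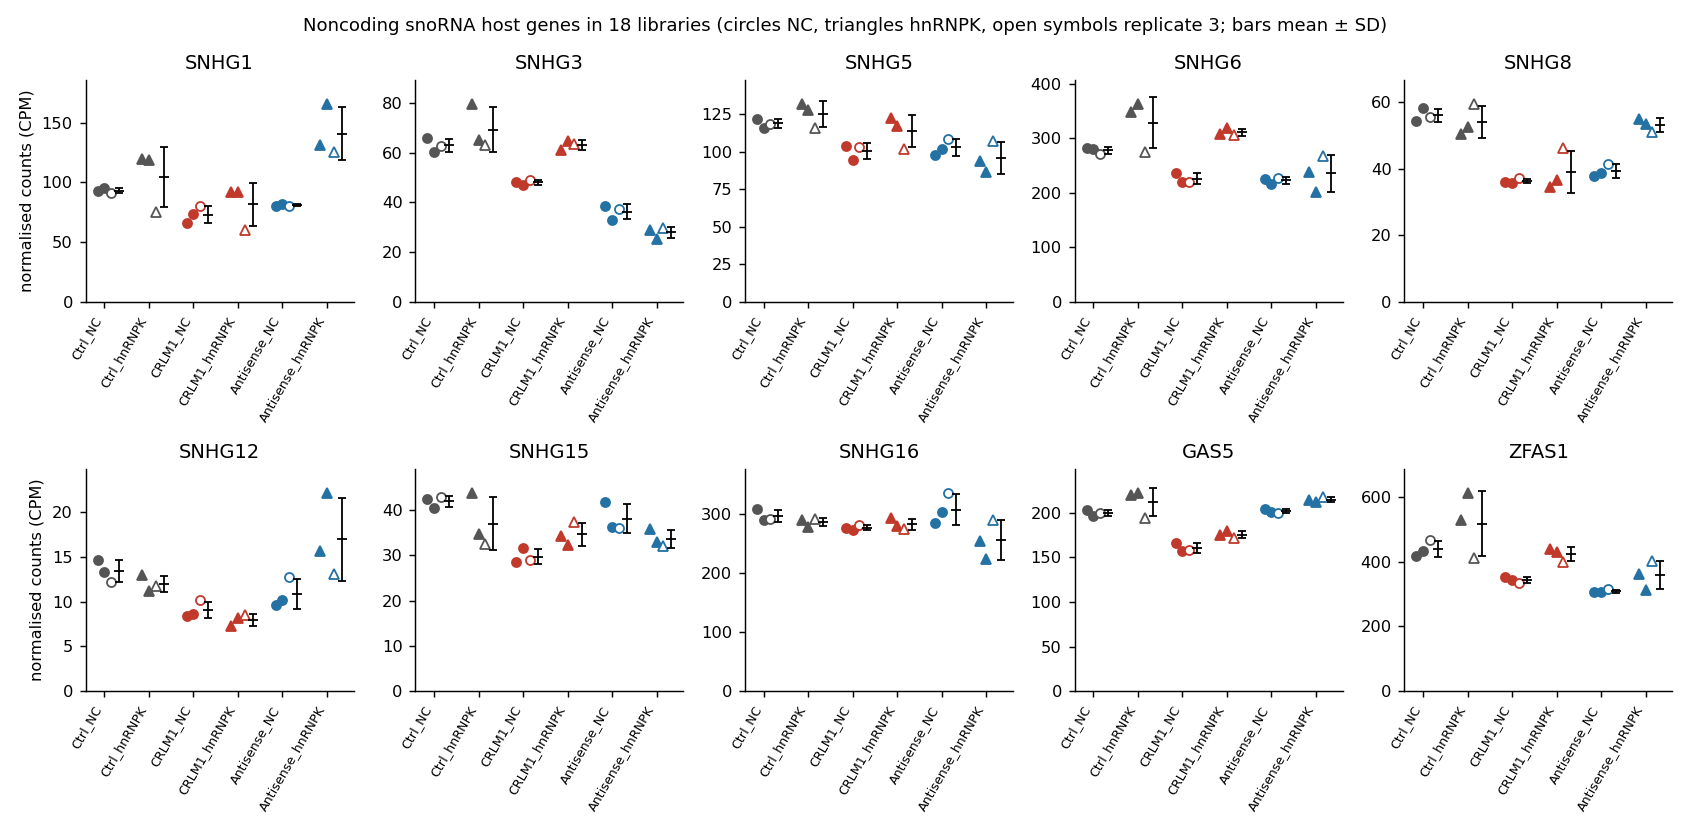
Level of each of the 10 host genes in CPM in the 6 groups, with circles for NC libraries, triangles for hnRNPK libraries, open symbols for replicate 3 and bars for mean ± SD of each group. Ctrl_NC lies above CRLM1_NC without overlap for all 10 members, with the share of all genes without overlap not given. The third hnRNPK library lies nearer to the NC libraries for SNHG1 in Ctrl and CRLM1 cells and for ZFAS1 in Ctrl cells.

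With the negative control transfected, CRLM1 cells had less RNA of every member than empty-vector cells. All 10 members fell (edgeR quasi-likelihood test, Benjamini-Hochberg adjusted over 14459 genes), by 0.12 to 0.65 on the log2 scale with a median of -0.37, while the median of all genes was 0.01. In the same comparison 17.4% of all genes passed the test downward and 16.9% upward. None of the 10 changed 2-fold. For all 10 the libraries of both groups did not overlap, but the share of all genes without overlap is not given here. Bulk RNA cannot tell a lower amount per cell from fewer cells that express the gene.

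SNHG8, the host of SNORA24 on chromosome 4 (118278703 to 118285316), moved most. Its level was 54.4, 58.3 and 55.4 CPM in Ctrl_NC and 35.9, 35.8 and 37.1 CPM in CRLM1_NC. These libraries lay far apart for the spread within each group, and the fitted difference was -0.65 (SE 0.061, adjusted p = 3.37e-11), or 0.639-fold. SNHG12, which holds SNORA44, SNORA61, SNORA16A and SNORD99 on chromosome 1 (28578538 to 28583132), had 14.7, 13.3 and 12.2 CPM in Ctrl_NC against 8.45, 8.62 and 10.2 CPM in CRLM1_NC, a difference of -0.58 (SE 0.12, adjusted p = 0.000208). It was the scarcest member, with the widest error. SNHG15, the host of SNORA9 on chromosome 7 (44983019 to 44986961), had 42.4, 40.5 and 42.8 CPM against 28.5, 31.6 and 28.9 CPM (-0.51, SE 0.070, adjusted p = 1.6e-07). SNHG3, on chromosome 1 (28505980 to 28510892), hosts SNORA73A and SNORA73B, abundant H/ACA snoRNAs of ribosomal RNA processing. It had 65.7, 60.2 and 62.5 CPM against 48.2, 47.0 and 49.0 CPM (-0.40, SE 0.056, adjusted p = 3.2e-07). No CRLM1_NC library of these 4 genes reached the Ctrl_NC range.

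Among the hosts of C/D snoRNAs, ZFAS1, transcribed next to the promoter of ZNFX1 on chromosome 20 (49278178 to 49299600) with the SNORD12 snoRNAs in its introns, had 419, 433 and 466 CPM in Ctrl_NC and 352, 342 and 332 CPM in CRLM1_NC. The difference was -0.38 (SE 0.034, adjusted p = 1.48e-11), the smallest p of the 10. SNHG1, which carries SNORD22 and SNORD25 to SNORD30 on chromosome 11 (62851978 to 62855953), had 92.4, 95.6 and 91.0 CPM against 66.0, 73.1 and 79.8 CPM, a difference of -0.37 (SE 0.053, adjusted p = 4.78e-07). Its CRLM1_NC libraries were spread more widely than those of Ctrl_NC. GAS5, on chromosome 1 (173858559 to 173868882), was found through its accumulation in growth-arrested cells, and its RNA is also known to bind the glucocorticoid receptor. It had 203, 196 and 200.2 CPM against 167, 157 and 158 CPM (-0.33, SE 0.036, adjusted p = 1.6e-09). SNHG6, on chromosome 8, had 282, 281 and 271 CPM against 238, 220.3 and 221 CPM (-0.31, SE 0.035, adjusted p = 1.81e-09). SNHG5, the host of the SNORD50 snoRNAs on chromosome 6 (85650491 to 85678932), had 122, 116 and 119 CPM against 103.8, 94.5 and 103.3 CPM (-0.26, SE 0.044, adjusted p = 1.02e-05). SNHG16, the host of SNORD1A, SNORD1B and SNORD1C on chromosome 17 (76557727 to 76670985), was nearest to no change, with 308, 289 and 291 CPM against 275, 273 and 281 CPM (-0.12, SE 0.033, adjusted p = 0.00547).

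In a single fit of all 6 groups, to which the hnRNPK libraries also belong, 1 of the 10 passed (SNHG8, adjusted p = 0.0345) and all 10 differences stayed negative. The share of all genes that passed downward in this fit is given with the gene lists below. On log2(FPKM + 0.1), 9 fell and SNHG16 had -0.04 (adjusted p = 0.402), with the share of all genes on this scale not given here.

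The antisense cells gave a second contrast with the same Ctrl_NC libraries, so that both contrasts share their control. Of the 10 members 8 fell in Antisense_NC, with a median over all 10 of -0.31, and 32.2% of 14389 genes passed downward and 34.4% upward. SNHG3 moved most: its Antisense_NC libraries had 38.5, 33.0 and 37.3 CPM, below all Ctrl_NC and all CRLM1_NC libraries, and the difference from Ctrl_NC was -0.84 (SE 0.065, adjusted p = 4.96e-14), or 0.558-fold. SNHG8 had 37.7, 38.6 and 41.5 CPM (-0.56, SE 0.063, adjusted p = 5.28e-10). ZFAS1 had 306, 305 and 314 CPM (-0.56, SE 0.036, adjusted p = 3.82e-16). These 3 members fell under all 15 alternatives. SNHG6 had 225, 216 and 228 CPM (-0.37, SE 0.036, adjusted p = 3.63e-11). SNHG5 had 98.04, 102 and 109 CPM (-0.26, SE 0.046, adjusted p = 6.09e-06). SNHG1 had 80.2, 82.2 and 80.4 CPM (-0.25, SE 0.048, adjusted p = 2.05e-05). For all 6 of these genes no Antisense_NC library reached the Ctrl_NC range, and the share of all genes without overlap is not given here.

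The other members lay closer to the control. SNHG12 had 9.61, 10.2 and 12.8 CPM (-0.36, SE 0.12, adjusted p = 0.00925) and SNHG15 had 41.7, 36.4 and 36.0 CPM (-0.19, SE 0.070, adjusted p = 0.0188), and both groups overlapped for each gene. Of 15 alternatives, SNHG12 lost its call in 6, and SNHG15 lost it in 7 and reversed direction in 3. GAS5 did not pass the test, with 204, 201 and 199.7 CPM in Antisense_NC (-0.03, SE 0.037, adjusted p = 0.431). SNHG16 did not pass either, with 284, 302 and 335 CPM (0.002, SE 0.043, adjusted p = 0.968). On log2(FPKM + 0.1), where the median of all genes moved to 0.24, the count was 2 higher and 4 lower: GAS5 (0.20, adjusted p = 0.000315) and SNHG16 (0.23, adjusted p = 0.0047) were above the control, and SNHG3, SNHG6, SNHG8 and ZFAS1 stayed below it. Shares of all genes past the test on the FPKM scale are not given here. In the single fit of all groups 3 passed, SNHG3, SNHG8 and ZFAS1. The shares of all genes in that fit are given with the gene lists below.

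**Figure D2:**
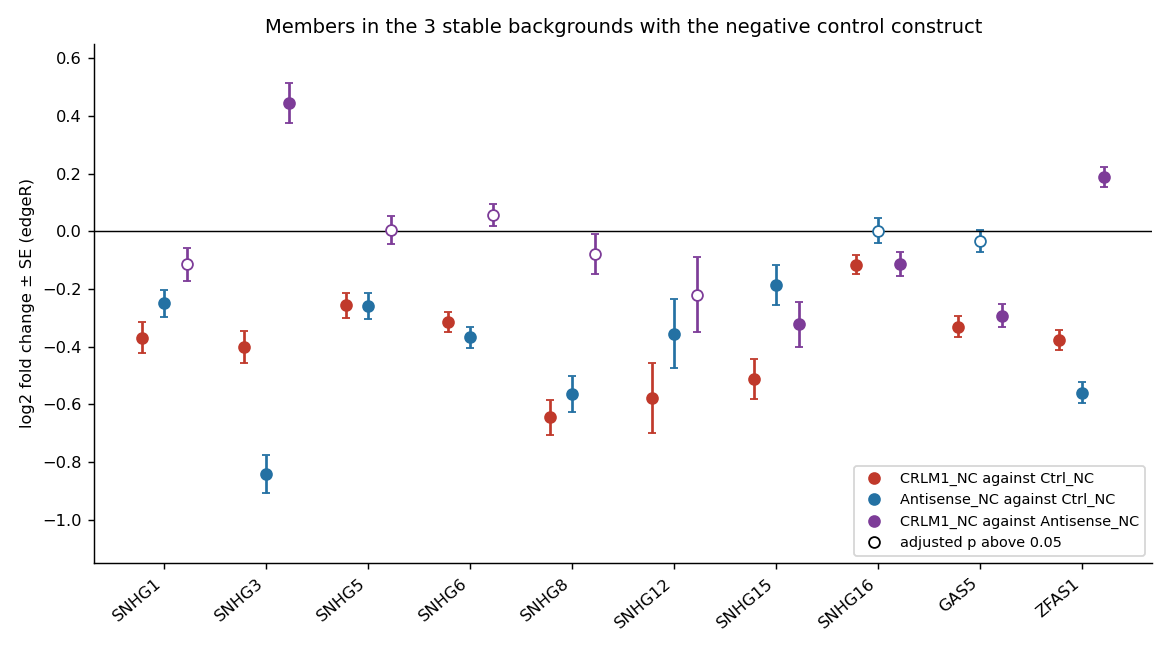
Log2 fold change of each of the 10 host genes, with bars for 1 SE, between the NC groups of the 3 backgrounds, with open points where the adjusted p is above 0.05. Both contrasts against Ctrl_NC lie at or below 0 apart from SNHG16 in the antisense contrast (0.002), and in the contrast of CRLM1_NC with Antisense_NC SNHG3 (0.45) and GAS5 (-0.29) lie on opposite sides of 0.

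A direct contrast of CRLM1_NC with Antisense_NC, which shares libraries with both contrasts above, parted the members. SNHG3 was higher in CRLM1_NC by 0.45 (SE 0.069, adjusted p = 1.02e-06) and ZFAS1 by 0.19 (SE 0.036, adjusted p = 2.59e-05). GAS5 was lower by -0.29 (SE 0.040, adjusted p = 7.13e-08), SNHG15 by -0.32 (SE 0.077, adjusted p = 0.000538) and SNHG16 by -0.11 (SE 0.042, adjusted p = 0.0212). The other 5 did not pass, with values from -0.22 (SNHG12) to 0.06 (SNHG6). These counts of 2 higher and 3 lower stood beside 26.9% of 14364 genes higher and 29.5% lower, so the members were called no more often than other genes. On log2(FPKM + 0.1), where the median of all genes was -0.17, 1 member was higher (SNHG3) and 8 were lower. The share of all genes past the test on this scale is not given here. SNHG3 was higher and GAS5 and SNHG15 were lower in CRLM1_NC under each of the scalings tried.

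In empty-vector cells, HNRNPK overexpression gave 0 members past the test, with 0 members at an unadjusted p under 0.05 and 0 past in DESeq2, and 0% of 14607 genes passed. The values ran from -0.20 (SNHG15) to 0.22 (SNHG6 and ZFAS1). ZFAS1 shows the spread behind this: its Ctrl_hnRNPK libraries had 529.5, 612 and 410.2 CPM beside 419 to 466 CPM in Ctrl_NC. For SNHG1 they had 119, 119 and 75.3 CPM beside 91.0 to 95.6 CPM. In both genes the third library lay below every NC library and the first and second lay above them. Without the third hnRNPK library 6 members rose, and 29.6% of 15004 genes passed upward and 29.9% downward. The members that rose were ZFAS1 (0.40, SE 0.064, adjusted p = 3.16e-05), SNHG6 (0.38), SNHG1 (0.38), SNHG3 (0.23), GAS5 (0.17) and SNHG5 (0.15, adjusted p = 0.0451).

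In CRLM1 cells 0 members passed with all libraries, 3 (SNHG3, SNHG6 and ZFAS1) had an unadjusted p under 0.05, 0 passed in DESeq2, and 0% of 14394 genes passed. The share of all genes at an unadjusted p under 0.05 is not given here. SNHG6 had 308, 319 and 307 CPM in CRLM1_hnRNPK, all above its 220.3 to 238 CPM in CRLM1_NC (0.51, SE 0.15, adjusted p = 0.533). SNHG3 had 61.0, 64.7 and 63.3 CPM, above its 47.0 to 49.0 CPM in CRLM1_NC and within the 60.2 to 65.7 CPM of Ctrl_NC (0.44, SE 0.15, adjusted p = 0.533). For these genes the third library did not stand apart from its own group. Without it 7 members rose, beside 29.5% of 14685 genes upward and 29.1% downward. SNHG6 rose by 0.52 (SE 0.050, adjusted p = 5.3e-10), SNHG3 by 0.44 (SE 0.070, adjusted p = 3.76e-06), ZFAS1 by 0.39 (SE 0.047, adjusted p = 3.35e-08) and SNHG1 by 0.38 (SE 0.068, adjusted p = 1.66e-05). SNHG5 (0.30), SNHG15 (0.21) and GAS5 (0.19) rose less.

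In antisense cells, where the third library correlated at 0.987 to 0.991 with its own group, 6 members passed with all libraries: 4 rose and 2 fell, beside 33.4% of 14501 genes upward and 30.5% downward. SNHG1 had 131, 166 and 125 CPM in Antisense_hnRNPK, its highest group, against 80.2, 82.2 and 80.4 CPM in Antisense_NC. The difference was 0.80 (SE 0.10, adjusted p = 1.47e-05), or 1.74-fold, the largest of any member in any pairwise comparison with all libraries apart from the fall of SNHG3 in Antisense_NC. SNHG12 had 15.7, 22.2 and 13.1 CPM against 9.61, 10.2 and 12.8 CPM (0.65, SE 0.18, adjusted p = 0.00704). SNHG8 had 54.9, 53.5 and 50.9 CPM against 37.7, 38.6 and 41.5 CPM (0.43, SE 0.082, adjusted p = 0.000385). ZFAS1 had 360.1, 314 and 401 CPM, of which the second only reached the 305 to 314 CPM of Antisense_NC (0.21, SE 0.085, adjusted p = 0.0444). This was the weakest of the 4, and 12 of 16 alternatives did not place it past the test.

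The 2 members that fell in antisense cells were SNHG3, with 29.1, 25.4 and 29.5 CPM against 38.5, 33.0 and 37.3 CPM (-0.38, SE 0.095, adjusted p = 0.00297), and SNHG16, with 254, 222 and 289.9 CPM against 284, 302 and 335 CPM (-0.27, SE 0.094, adjusted p = 0.0208). The SNHG16 groups overlapped. Antisense_hnRNPK was thereby the lowest of the 6 groups for SNHG3, at 28.0 ± 2.28 CPM, and no library of it reached another group. Across groups the SNHG3 means spanned 2.47-fold, from this group to the 69.2 ± 9.12 CPM of Ctrl_hnRNPK, which overlapped CRLM1_hnRNPK. On log2(FPKM + 0.1), where the median of all genes was 0.23, the antisense count was 6 higher (SNHG1, SNHG12, SNHG8, ZFAS1, GAS5 and SNHG6) and 0 lower. SNHG3 had -0.13 (adjusted p = 0.188) and SNHG16 -0.03 (adjusted p = 0.787) there. The share of all genes past the test on this scale is not given here.

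**Figure D3:**
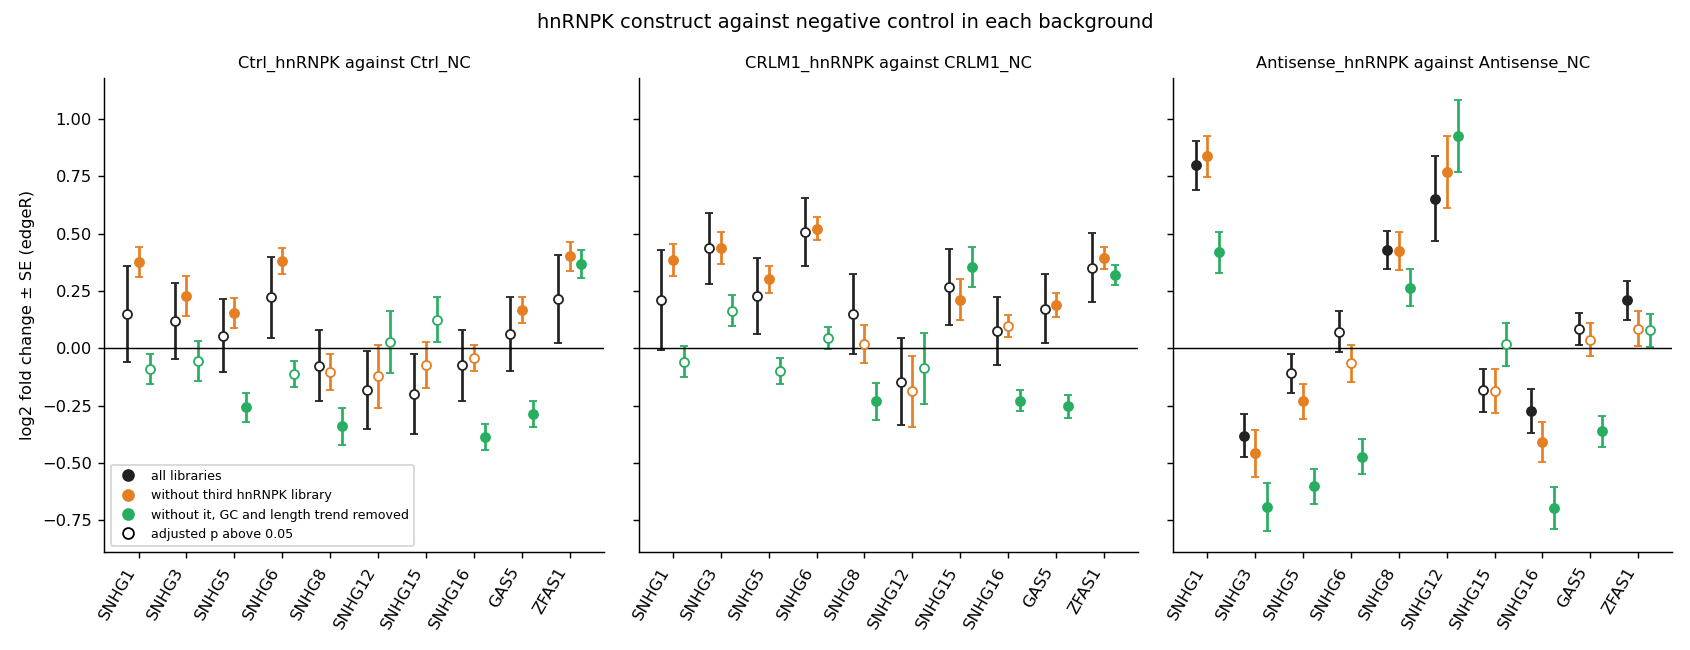
Log2 fold change of each of the 10 host genes, with bars for 1 SE, between the hnRNPK and NC groups of each background, with all libraries, without the third hnRNPK library, and without it and with a GC and length trend removed (open points, adjusted p above 0.05). Errors narrow in Ctrl and CRLM1 cells when the third library is left out, removing the trend lowers most points, and SNHG3 lies above 0 in CRLM1 cells and below 0 in antisense cells in all 3 settings.

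The HNRNPK differences moved with base composition. The Spearman correlation of log2 fold change with GC content across genes was -0.71 in Ctrl, -0.64 in CRLM1 and -0.71 in antisense cells with all libraries, and -0.75 in Ctrl and -0.77 in CRLM1 cells without the third library. Between NC groups it was -0.17 for CRLM1_NC with Ctrl_NC, -0.30 for Antisense_NC with Ctrl_NC and 0.29 for CRLM1_NC with Antisense_NC. Genes are not independent replicates. The members' transcripts had 42.2 to 53.2% GC with a median of 45.8%, below the 50.4% median of all genes. With a GC and length trend removed, the antisense count became 2 higher and 5 lower: SNHG12 (0.77, adjusted p = 0.00475) and SNHG1 (0.33, adjusted p = 0.0254) rose, while SNHG3 (-0.66), SNHG16 (-0.61), SNHG5 (-0.53), SNHG6 (-0.40) and GAS5 (-0.38) fell. With the trend removed and the third library left out, which was chosen after seeing the data, 1 member rose (ZFAS1, 0.37) and 4 fell (SNHG16, SNHG8, GAS5 and SNHG5) in Ctrl cells. The same treatment left 2 that rose (SNHG15, 0.36, and ZFAS1, 0.32) and 3 that fell (GAS5, SNHG8 and SNHG16) in CRLM1 cells. Shares of all genes past the test in these trend-removed fits are not given here. The part of GC content in the HNRNPK differences was otherwise not tested. By contrast, all 10 members fell in CRLM1_NC with the trend removed, by 0.18 to 0.66.

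Whether the HNRNPK effect itself differed between backgrounds was tested as an interaction. With all libraries, SNHG3 differed between CRLM1 and antisense cells, by 0.80 (SE 0.18, adjusted p = 0.0473), as the 1 member past the test, beside 0.807% of 15233 genes upward and 0.315% downward. The adjusted p rose to at most 0.151 under 14 of 23 alternatives, among them leaving out any 1 of the NC libraries or the first or second Antisense_hnRNPK library, while the value stayed between 0.51 and 0.96. Across genes the correlation of this interaction with GC content was 0.45, and with the GC trend removed SNHG3 had 0.96 (adjusted p = 0.00209). Between CRLM1 and Ctrl cells 0 members passed, with 0 at an unadjusted p under 0.05, 0 in DESeq2 and 0% of 15188 genes. Between antisense and Ctrl cells 0 members passed, with 4 at an unadjusted p under 0.05, 0 in DESeq2 and 0% of 15346 genes. The share of all genes at that unadjusted p is not given here. The correlation with GC content was 0.21 for CRLM1 minus Ctrl and -0.39 for antisense minus Ctrl.

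Without the third hnRNPK library of both backgrounds, 9 members differed between CRLM1 and antisense cells. The effect was more positive in CRLM1 cells for 6, led by SNHG3 (0.85, SE 0.12, adjusted p = 8.41e-06), SNHG6 (0.55) and SNHG5 (0.49), and more negative for SNHG12 (-0.995), SNHG1 (-0.49) and SNHG8 (-0.45), beside 17.3% of genes upward and 9.23% downward. GAS5 was the member that did not pass (0.11, adjusted p = 0.363). The third antisense library, also left out here, correlated at 0.987 to 0.991 with its own group. Leaving out the third CRLM1_hnRNPK library alone gave 8 members, with the share of all genes in that fit not given here. Between antisense and Ctrl cells, without the third hnRNPK library of both, 7 members passed, beside 6.58% of genes upward and 9.47% downward. SNHG12 (0.93), SNHG8 (0.57) and SNHG1 (0.50) were more positive in antisense cells, and SNHG3 (-0.64), SNHG6 (-0.40), SNHG5 (-0.34) and SNHG16 (-0.33) more negative. These contrasts share the antisense libraries. Between CRLM1 and Ctrl cells 0 members passed, 4 had an unadjusted p under 0.05, and 3.36% of genes passed upward and 0.0904% downward. These shares are at the adjusted p, and that at the unadjusted p is not given here. Without the third libraries the correlation of the interaction values with GC content across genes was 0.05, 0.01 and 0.11 in that order.

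Genes of the same pathways were counted from lists of known genes. Of 36 protein-coding snoRNA host genes, mostly ribosomal protein and translation factor genes, 25 fell and 5 rose in CRLM1_NC against Ctrl_NC (median -0.29), with RPS3A (-0.88), RPS12 (-0.71) and RPL10 (-0.67), components of the ribosome, lowest. In Antisense_NC 29 fell and 7 rose (median -0.50), and HSPA8, a heat shock chaperone with C/D snoRNAs in its introns, was lowest (-1.64). Of the other noncoding hosts, 4 of 12 fell and 0 rose in CRLM1_NC (EPB41L4A-AS1, -0.79; SNHG19, -0.49), and 7 of 11 fell and 0 rose in Antisense_NC (SNHG25, -1.36; SNHG4, -1.36). Both contrasts use the same Ctrl_NC libraries. In the single fit of all groups, 2 coding hosts and 1 other noncoding host fell and 0 rose in CRLM1_NC, beside 0.313% of all genes downward, while 19 coding hosts fell and 5 rose and 6 other noncoding hosts fell in Antisense_NC, beside 18.3% of all genes upward and 14.2% downward.

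Of 21 NMD factors, 10 rose and 6 fell in CRLM1_NC (median 0.14), and 14 rose and 3 fell in Antisense_NC (median 0.45). SMG8, a regulator of the SMG1 kinase that phosphorylates UPF1, had 0.65 (adjusted p = 0.00628) and 1.40 (adjusted p = 4.3e-09). UPF1, the central helicase of the pathway, had -0.11 (adjusted p = 0.0224) and 0.04 (adjusted p = 0.332). Of 5 coding transcripts known as NMD substrates, 1 rose and 2 fell in CRLM1_NC, while 3 rose and 2 fell in Antisense_NC, with ATF4 at 0.78 and GADD45B at -2.07. Of 14 targets of ATF4, the transcription factor of the amino acid stress response, 4 rose and 5 fell in CRLM1_NC, and 10 rose and 4 fell in Antisense_NC, where CHAC1 reached 5.47. In the single fit of all groups 0 NMD factors and 0 ATF4 targets passed in CRLM1_NC, while 12 NMD factors and 10 ATF4 targets rose in Antisense_NC. These lists describe RNA levels, and translation and decay rates were not measured.

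The intronic products were barely covered. Of 35 snoRNAs listed for the members, some matched no gene of the data and others matched 2, and neither kind was tested. Of those that matched 1 gene, 7 passed the filter on low counts in CRLM1_NC against Ctrl_NC. Among these 1 fell, SNORA73B (-1.29), which SNHG3 hosts. All 7 tested fell in Antisense_NC, SNORA73B (-2.54) and SNORD28 of SNHG1 (-2.22) most. The highest of these in Ctrl_NC, SNORA61 of SNHG12, was at 2.16 ± 0.130 CPM. Short RNAs were not enriched in the library protocol as described, so these counts sample little of the snoRNA pool.

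**Figure D4:**
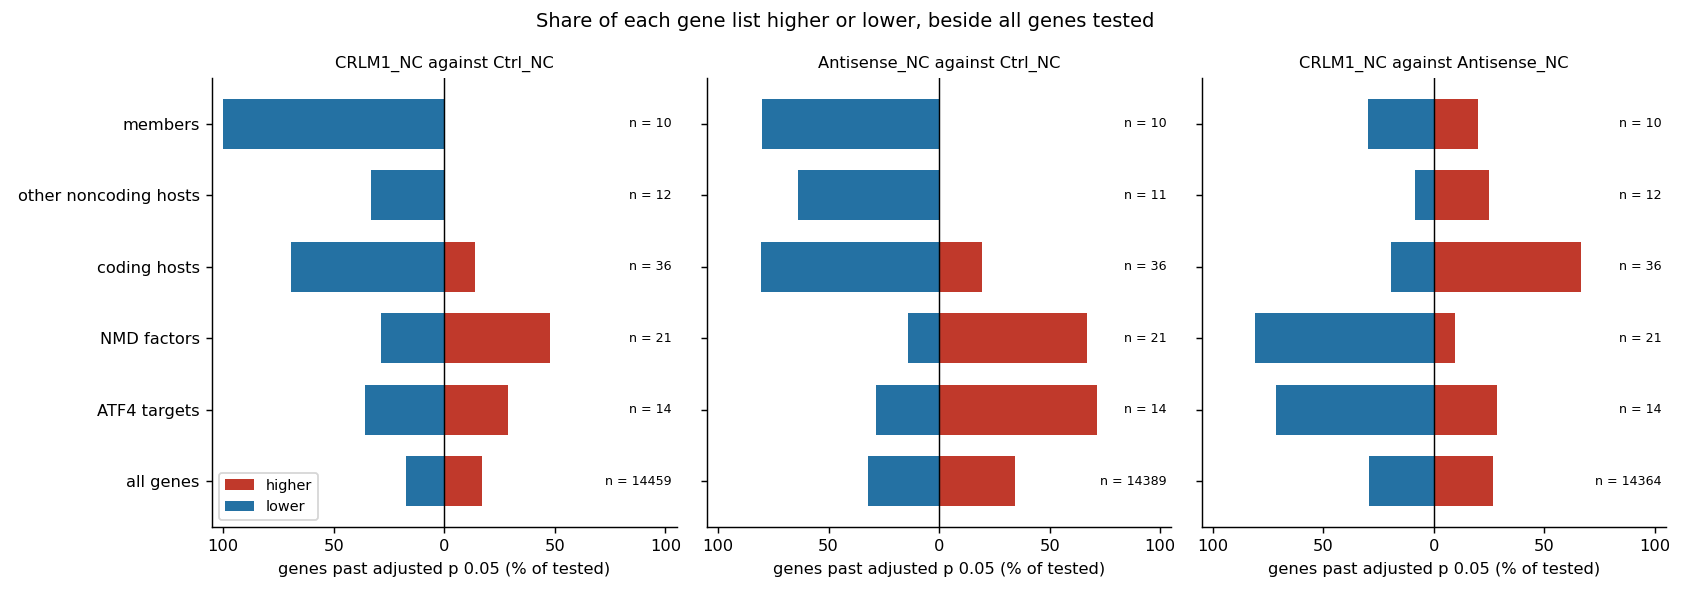
Percent of the tested genes of each list that passed the test upward (right) and downward (left) in the 3 comparisons between NC groups, beside the same percent over all genes tested, with n the genes tested. All 10 members and 25 of 36 coding host genes passed downward in CRLM1_NC against Ctrl_NC, where 17.4% of all genes did.

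HNRNPK overexpression moved genes of these lists in both directions. In antisense cells 15 of 36 coding hosts rose and 9 fell, and 1 of 12 other noncoding hosts rose and 3 fell, beside the 33.4% and 30.5% of all genes given above. Over the alternatives 7 to 22 coding hosts rose and 5 to 13 fell. NMD factors split into 11 higher and 9 lower, with UPF1 at -0.93 (adjusted p = 3.29e-07), and ATF4 targets into 8 higher and 3 lower. Over the alternatives 6 to 12 NMD factors were higher and 3 to 9 lower. For ATF4 targets these ranges were 5 to 13 and 0 to 3. With the third library left out, 19 coding hosts rose and 11 fell in Ctrl cells, and 16 rose and 8 fell in CRLM1 cells, where 29.1 to 29.9% of all genes passed in each direction. In the same fits 1 ATF4 target rose and 9 fell in Ctrl cells, and 2 rose and 8 fell in CRLM1 cells. With all libraries 0 genes of these lists passed the edgeR test in these 2 backgrounds, as 0% of all genes did.

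The members did not all follow 1 pattern over the 18 libraries. The correlation of a member's log2 CPM with the mean of the other 9 was highest for ZFAS1 (0.76), SNHG5 (0.67), SNHG8 (0.65) and SNHG6 (0.64), and lowest for SNHG1 (0.29), SNHG3 (0.22), SNHG12 (0.20) and SNHG16 (0.04). Over 10086 genes that averaged 5 CPM or more, those most like the members' mean were NDFIP1 (Pearson r = 0.94), ZC3HAV1L (0.92), TMEM243 (0.92), RPS3A (0.92), the pseudogenes EEF1A1P11 (0.90) and EEF1A1P13 (0.87), RPL31 (0.89) and CPOX (0.89). The mean of the coding hosts had r = 0.81 with the members' mean, the other noncoding hosts 0.42, the NMD factors -0.31, the ATF4 targets -0.32 and the epithelial markers -0.33. These values describe 18 libraries in 6 groups, with shared depth and base composition within a library, and are not tests.

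Reads shared with neighbours limit some values, as the use of strand in counting was not stated. In the annotation, exons of SNHG8 overlap those of PRSS12 by 2487 bases and SNHG6 those of MCMDC2 by 1488 bases, both on the opposite strand. SNHG5 shares 715 exon bases with the pseudogene PKMP3 and SNHG3 shares 242 with RCC1 on the same strand.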

How the data were processed

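RNA of 18 HCT116 libraries, 3 biological replicates in each of 6 groups, was extracted with TRIZOL and sequenced as 151 nt pairs. The deposited counts were made by the authors from uniquely mapped reads (TopHat2, GRCh38, Gencode v23), with FPKM computed by the authors from the same reads. Use of strand was not stated, and the aligner's version was not given in the sources used here.

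The counts were tested with edgeR 4.0.16 (R 4.3.3; TMM scaling, filterByExpr, robust quasi-likelihood fits of the groups compared), two-sided, with Benjamini-Hochberg adjustment over all genes and a threshold of 0.05. SE was taken from the fold change and its F statistic. Alternatives were RLE factors, no filter, DESeq2 1.42.0, a single fit of all groups, a replicate term, a GC and length trend removed (span 0.5), limma 3.58.1 on log2(FPKM + 0.1) and log2(FPKM + 1), and leaving out libraries. The edgeR fits of 2 comparisons were tested on simulated counts with true log2 changes of 0.5 or 1. In Antisense_NC against Ctrl_NC 67.7% and 89% of these were recovered, with 0% false. For HNRNPK in antisense cells 50.5% and 78.8% were recovered, with 9.22% false, so calls near the threshold there are less certain. P-values measure the spread between the 3 labelled biological replicates of a group.

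Members and lists were chosen with earlier results of these data known. All 10 members were named, with at most 4 genes of another list, those with the largest change past the test, and the 8 genes most like the members' mean. UPF1 was named after its values were seen. SNHG18, VLDLR, CD3E and some of the members' snoRNAs were not matched to a single gene. Some overlaps with neighbouring genes are not reported here. Coordinates and overlaps are from Gencode v44 and windows from RefSeq, both on GRCh38.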

Additional observations from a re-analysis of the deposited data

Results flagged for a closer look

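The HNRNPK effect on SNHG3, the host of SNORA73A and SNORA73B, differed between CRLM1 and antisense cells. The interaction was 0.8049 on the log2 scale (SE 0.183, edgeR quasi-likelihood test with Benjamini-Hochberg adjustment, adjusted p = 0.0473), which is a test of the difference itself. SNHG3 was higher in each of the 3 CRLM1_hnRNPK libraries than in any CRLM1_NC library, and lower in each of the 3 Antisense_hnRNPK libraries than in any Antisense_NC library. The direction was the same under all 23 alternatives, and the adjusted p was past the threshold in 9 of them.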

How the results depend on the processing

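Recomputed counts of members past the test stayed within 1.5 times the count reported in 131 cases and left that range in 31. Shares of all genes are not given beside the recomputed counts of this section, though some are stated above. In the single fit of all groups the count became 1 (CRLM1_NC against Ctrl_NC), 3 (Antisense_NC against Ctrl_NC) and 1 (CRLM1_NC against Antisense_NC), and the cause was not tested. Leaving out 1 library gave 9 to 10, 7 to 8 and 4 to 6 in these contrasts, and 4 to 6 for HNRNPK in antisense cells. It gave 0 to 6 (Ctrl) and 0 to 7 (CRLM1) for HNRNPK in the other backgrounds, where the third hnRNPK library alone made the difference. For the interactions it gave 0 to 0 (CRLM1 minus Ctrl), 0 to 2 (antisense minus Ctrl, 2 without the third Ctrl_hnRNPK library) and 0 to 8 (CRLM1 minus antisense, 8 without the third CRLM1_hnRNPK library). Without the third hnRNPK library of either background, antisense minus Ctrl became 7 and CRLM1 minus antisense 9.

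The SNHG3 interaction was not past the test with RLE factors, no filter on counts, FPKM + 0.1 or FPKM without a filter (0 members each), nor on FPKM + 1 (adjusted p = 0.0553). The replicate block also gave 0, though replicate numbers did not pair the libraries (correlations of deviations -0.068 to 0.034), and it changed no other count by over 1.5 times. With the GC trend removed the counts were 5 (CRLM1 minus antisense) and 1 (antisense minus Ctrl), and on FPKM + 1 the latter was 1. With the trend removed and the third library left out they were 5 (HNRNPK in Ctrl), 5 (in CRLM1), 8 (CRLM1 minus antisense) and 6 (antisense minus Ctrl).

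Differences of single members kept direction and call in 1428 cases, lost the call in 83, gained one in 88 and reversed in 21. Counts of the other lists left 1.5 times the reported count in 178 cases and kept within it in 794. On FPKM + 0.1 and FPKM + 1 the count for CRLM1_NC against Antisense_NC was 9 and 9, SNHG5 was -0.16 and -0.16, and SNHG6 was -0.11 and -0.11. In Antisense_NC against Ctrl_NC, GAS5 was 0.20 and SNHG15 0.042 on FPKM + 0.1 (also with no filter), and 0.20 and 0.038 on FPKM + 1. With the GC trend removed SNHG16 was -0.20 there and 0.032 in CRLM1_NC against Antisense_NC, and for HNRNPK in antisense cells SNHG6 was -0.40 and GAS5 -0.38. With the third library also left out these were -0.47 and -0.36, and SNHG5 (-0.26) and GAS5 (-0.29) reversed in Ctrl, and SNHG8 (-0.23), SNHG16 (-0.23) and GAS5 (-0.25) in CRLM1 cells.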
